A study of Bos taurus with 12 samples.

Results

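Cyclin-dependent kinase (CDK) inhibitors are small proteins that bind the kinases driving the cell cycle and hold them inactive. The INK4 proteins, encoded by CDKN2A, CDKN2B (p15), CDKN2C (p18) and CDKN2D (p19), bind CDK4 and CDK6, whose work is to phosphorylate the retinoblastoma protein RB. The Cip/Kip proteins, encoded by CDKN1A (p21), CDKN1B (p27) and CDKN1C (p57), act more widely, mainly on complexes that hold CDK2. The endometrium, the lining of the uterus, sheds or repairs cells and regrows them after damage, so that cell division is repeatedly started and stopped there.

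The 7 genes were chosen by name: a probe belonged to the set when the gene name that the array design gives it was one of these 7. Probes were found for 6 of the 7 genes, of 19215 named genes measured in all; CDKN2A was not analysed here. The genes were proposed as a set with day differences of the same arrays in view, CDKN2B above all, so their values over days are given as a description and without a test.

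The samples were endometrial biopsies of 3 cows described as fertile, each taken from the same animals on days 0, 2, 7 and 14 after an intrauterine treatment with povidone-iodine (PVP-I), an iodine antiseptic. That gave 3 arrays on each of 4 days and 12 arrays in all, every one hybridised with total RNA of 1 biopsy carrying a single dye, Cy3. Biopsies alternated between the left and right uterine horns, and the labels used here give neither the horn of each sample, nor the stage of the oestrous cycle, nor whether the antiseptic had been given when the day 0 tissue was cut. All 3 animals were treated, so day 0 is the only reference.

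The CDK inhibitors were read by 9 probes of 60 bases, each with a sequence that no other probe on the array shared. The first 30 bases are shown for the probes on which the values below turn, namely the single CDKN2B probe and the paired probes that allow a second reading of CDKN1A and CDKN2C.
CDKN2B probe: tctaaaatattaccaaggtttgtaaaaatc
CDKN1A probe 1: ttcaaagccccacccacagtgctgagtata
CDKN1A probe 2: tgcaccctcgtgactcgctcccccgagcgg
CDKN2C probe 1: ttttctccttgcctctccctttgccagtct
CDKN2C probe 2: gctctcccacactgtcttctgttttgtcag
In the HGSC Btau_3.1 build that the array files use, the CDKN2B probe lies on the plus strand at chr8:23032522-23032581 and consists of 35.0% G and C. The CDKN1A probes lie on the plus strand at chr23:10914759-10914818 (probe 1, 45.0% G and C) and chr23:10911452-10911511 (probe 2, 80.0%). The CDKN2C probes lie on the minus strand at chr3:102130406-102130465 (probe 1, 43.3%) and chr3:102130654-102130713 (probe 2, 38.3%). The CDKN1B probes lie on the minus strand at chr5:104168293-104168352 (probe 1) and chr5:104169111-104169170 (probe 2), the CDKN1C probe on the plus strand at chr29:50595735-50595794, and the CDKN2D probe on the minus strand at chr7:13531219-13531278. No annotation of this build was used here, so exon and UTR boundaries are not given.

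Signal was expressed as log2 of the scanner's processed intensity minus the 75th percentile of its array, so that 0 is the level of that percentile and a difference of 1 is a doubling. Values of different probes are not comparable as levels, because each probe binds with its own strength. Of the 9 probes, 8 were well above background on 12 of 12 arrays; CDKN1A probe 2 was so on 2 of 12 and was not tested. The day 2 array of cow 3 had 27557 probes well above background (63.2% of the probes left after outlier flags), and the other arrays had 31109 to 33152. No spot was saturated.

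Sample names needed a choice. For 10 of 12 arrays, the sample linked to the scanner file differed from the sample whose column in the deposited value table held that file's values. The value table's names were used; under them, 20 probes split 1 cow's 4 arrays from the other 8 by at least 8-fold, and under the file links 0 probes did. Under the value table's names each cow lies on 1 of 3 slides and each day at 1 position on the slide, so cow and slide, and day and position, cannot be told apart. The file links mix slides within a cow. The split of 20 against 0 probes therefore cannot show which names are right, as slides could also split the arrays. Under the file links, the day 7 minus day 0 difference of CDKN2B was 0.32 in place of 3.65, and those of the other 7 probes lay between -0.74 and 0.19.

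CDKN2B, whose product p15 holds CDK4 and CDK6 and whose transcription is known to be switched on by TGF-beta, was high on day 7 and low on the other 3 days. In cows 1, 2 and 3, its log2 signal was -3.51, -4.61 and -3.70 at day 0, then -3.65, -3.83 and -4.69 on day 2. On day 7 the values were -1.34, -0.03 and 0.50, and by day 14 they were -4.69, -3.81 and -4.49. The 3 day 7 arrays were the 3 highest of 12, and their range did not touch that of any other day. The means of days 0, 2, 7 and 14 were -3.94 ± 0.59, -4.06 ± 0.56, -0.29 ± 0.95 and -4.33 ± 0.46 (SD, n = 3). In descending order the days ran 7, 0, 2, 14; the last 3 lay 0.12 and 0.27 apart, which is less than their SDs.

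On day 7 CDKN2B stood 3.65 ± 0.54 above day 0 on the log2 scale (SE of the fit), a 12.5-fold difference, with single cows at 2.17, 4.58 and 4.19. Of 33539 probes tested, 142 had a larger increase between these days. Against day 2, the difference was 3.77, with 36 probes above it. From day 7 to day 14, CDKN2B dropped by 4.04 on the log2 scale, or 16.4-fold, and 25 probes had a lower difference. The smallest of the 3 rises and the smallest of the 3 drops were both in cow 1, with 2.17 and -3.35. Background correction by normexp, which adds a fixed offset to every spot, followed by quantile normalisation, gave -2.83 for day 14 minus day 7. Over 12 settings that keep the value table's names, the day 7 minus day 0 difference ran from 2.43 to 4.39. Settings that change only the probe filter, the cow block or the days fitted cannot move this difference, as every cow has 1 array per day.

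**Figure D1:**
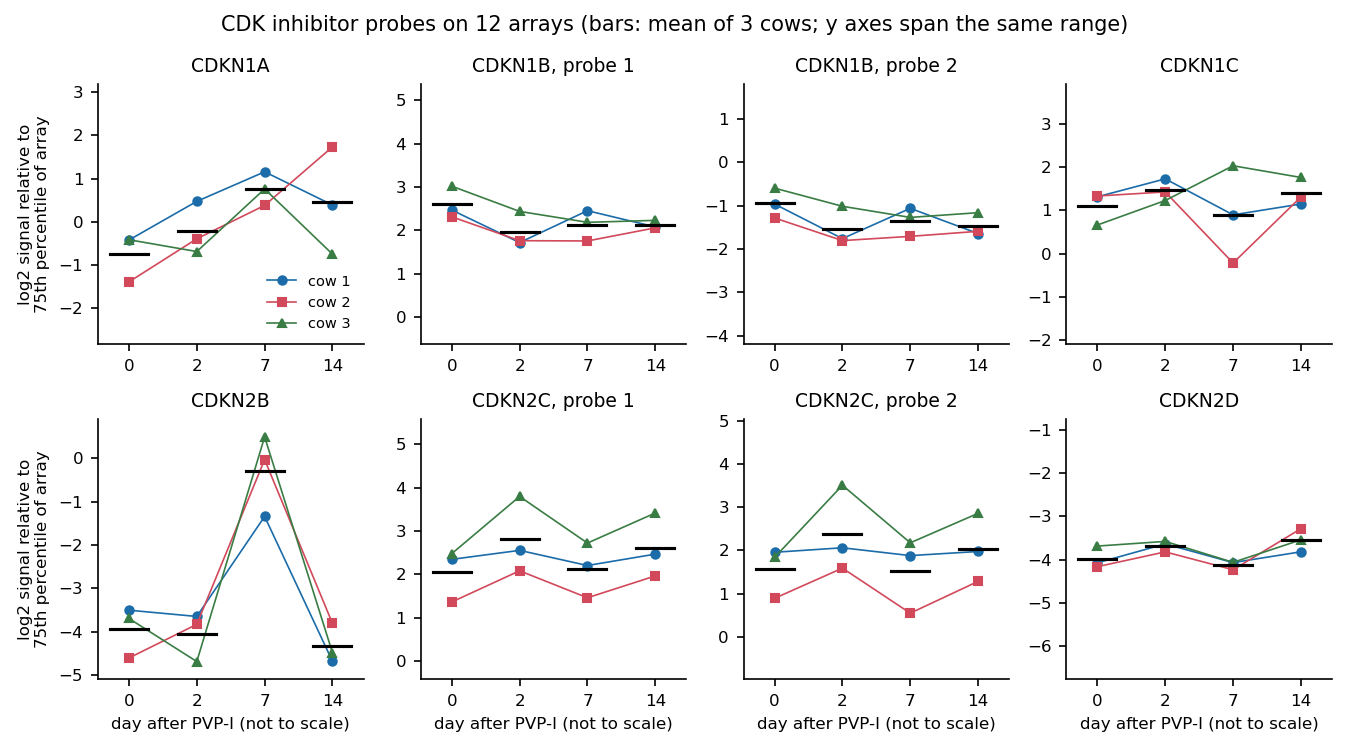
Log2 signal relative to the 75th percentile of the array (y axis, each panel spanning the same range of log2 units) against day after PVP-I (x axis, evenly spaced) for the 8 tested probes; coloured points joined by lines are cows 1 to 3 and black bars are means. CDKN2B is the panel where the day 7 points, from -1.34 to 0.50, leave the range of the other days, while CDKN1B, CDKN1C, CDKN2C and CDKN2D overlap between day 0 and day 7.

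Of the other probes, 2 lay within 60 kb of the CDKN2B probe, at 57.5 and 58.4 kb; the array names them by an Ensembl transcript only, and they were picked for their position after the values of CDKN2B had been seen. Their day 7 minus day 0 differences were 0.51 ± 0.22 and 0.35 ± 0.21 on the log2 scale, and neither passed limma's test (adjusted p = 0.135 and 0.274). In the order of RefSeq genes, CDKN2B is followed by CDKN2A and MTAP; no probe named MTAP was on the array.

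CDKN1A encodes p21, an inhibitor known to be switched on by DNA damage and other stress. In cows 1, 2 and 3, its probe 1 read -0.42, -1.39 and -0.41 at day 0, then 0.47, -0.39 and -0.69 at day 2. Day 7 gave 1.16, 0.38 and 0.76, and day 14 gave 0.39, 1.73 and -0.75. The 3 day 7 values were all above the 3 day 0 values, whereas the day 14 values ran from below the lowest to above the highest day 7 value. The means were -0.74 ± 0.56, -0.20 ± 0.60, 0.76 ± 0.39 and 0.46 ± 1.24 (SD, n = 3) on days 0, 2, 7 and 14.

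CDKN1A differed from day 0 by 1.51 ± 0.57 on day 7, with cows at 1.58, 1.77 and 1.17. On day 14 the difference was 1.20 ± 0.57 but came from unlike animals, at 0.81, 3.12 and -0.33. Probe 2 of CDKN1A, mostly not well above background, gave 1.00 on day 7 and 1.14 on day 14, and followed probe 1 over the 12 arrays (Pearson r = 0.88, as a description of 2 probes of 1 transcript on shared arrays).

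CDKN1B encodes p27, whose level in many cells is set by its destruction through SKP2 as well as by its RNA. Probe 1 read 2.47, 2.31 and 3.02 at day 0, then 1.72, 1.76 and 2.44 at day 2. Day 7 gave 2.45, 1.75 and 2.19, and day 14 gave 2.08, 2.06 and 2.23. Each cow's value was lower on days 2, 7 and 14 than on its own day 0, although cow 1 differed by only -0.01 on day 7. The log2 differences were -0.63 ± 0.21, -0.47 ± 0.21 and -0.48 ± 0.21, and probe 2 gave -0.58, -0.40 and -0.52. Both probes moved together over the arrays (r = 0.96).

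CDKN1C encodes p57, an imprinted gene in many mammals. It read 1.31, 1.33 and 0.66 at day 0, then 1.73, 1.43 and 1.23 at day 2. Day 7 gave 0.90, -0.22 and 2.03, and day 14 gave 1.15, 1.31 and 1.76. The cows went apart on day 7, where cow 2 held the lowest and cow 3 the highest of the 12 values. The differences from day 0 were 0.36, -0.20 and 0.30 on days 2, 7 and 14, each smaller than the SE of 0.48.

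CDKN2C, encoding p18, was higher on day 2 than on day 0 in 3 of 3 cows and back near its day 0 level on day 7. Probe 1 read 2.34, 1.36 and 2.48 at day 0, then 2.55, 2.08 and 3.80 at day 2. Day 7 gave 2.20, 1.46 and 2.72, and day 14 gave 2.46, 1.96 and 3.41. Within every cow the order was day 2 first and day 14 second, but the ranges of the days overlapped because the cows lay apart. The differences from day 0 were 0.75 ± 0.21, 0.07 ± 0.21 and 0.55 ± 0.21, and probe 2 gave 0.82 ± 0.28, -0.03 ± 0.28 and 0.48 ± 0.28. From day 2 to day 7, probe 1 differed by -0.68 and probe 2 by -0.85, with lower values in 3 of 3 cows. The pair agreed closely in pattern (r = 0.98).

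CDKN2D, encoding p19, spanned the narrowest range, 0.95 log2 units over the 12 arrays against 5.19 for CDKN2B. It read -4.07, -4.16 and -3.69 at day 0, then -3.64, -3.82 and -3.58 at day 2. Day 7 gave -4.07, -4.23 and -4.06, and day 14 gave -3.82, -3.28 and -3.54. Day 7 lay below days 2 and 14 with no overlap, by -0.44 against day 2 (cows at -0.43, -0.41 and -0.48), and day 14 lay 0.57 above day 7. Its differences from day 0 were 0.30, -0.15 and 0.43, with an SE of 0.18. After normexp correction followed by quantile normalisation, the differences of days 2 and 14 from day 0 were -0.01 and 0.01. Those 2 thus depended on the processing, and background and normalisation were changed together.

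**Figure D2:**
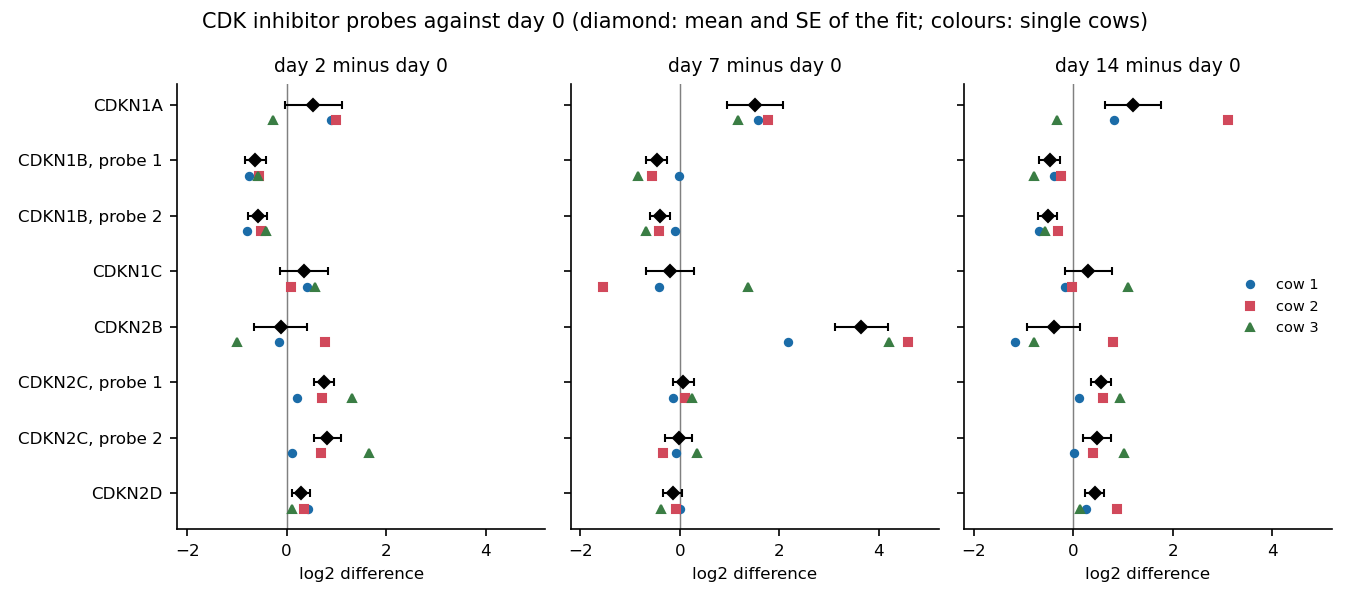
Log2 difference from day 0 (x axis) for the 8 tested CDK inhibitor probes (y axis) on days 2, 7 and 14; black diamonds with bars are the fitted mean and its SE, and coloured points below them are cows 1 to 3. CDKN2B on day 7, at 3.65, is the widest difference, the mean of CDKN1A on day 7 is next at 1.51, and CDKN1B lies left of 0 on all 3 days.

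Counts of CDK inhibitor probes past an adjusted p of 0.05 in limma, the threshold used throughout, are given with the share of all 33539 probes past it; nothing is read from them, as the set was proposed from these comparisons. Day 7 against day 0 called 1 of 8 probes, CDKN2B, where 18.2% of all probes were called; leaving out cow 1 or cow 2 gave 0 of 8, and fitting those 2 days alone gave 2 of 8. Day 7 against day 2 and day 14 against day 7 also called CDKN2B alone, with 0.486% and 0.146% of all probes called, and each gave 0 without cow 1, without cow 2, with no filter on dim probes or from the 2 days alone. Day 7 against day 2 also gave 0 without the day 2 array of cow 3, and day 14 against day 7 gave 0 without cow 3 or after quantile normalisation of the processed signal (1 after normexp and quantile normalisation). Under the file links all 6 comparisons of days called 0 of 8. Any difference among the 4 days, by the moderated F, was called for CDKN2B alone, where the share of all probes was 7.78%. Day 2 against day 0, day 14 against day 0 and day 14 against day 2 called 0 of 8 in limma, with 2.52%, 0.131% and 0% of all probes called. At an unadjusted p under 0.05 in limma, these comparisons held 4, 3 and 0 of the 8 probes, and 7012, 6894 and 4225 of all 33539 probes. With array weights in limma, the counts were 3 for day 2 and 2 for day 7 against day 0, 5 for day 7 against day 2, 3 for day 14 against day 7 and 2 for day 14 against day 2. The share of all probes called with weights is not given here. Weights also raised the counts of listed genes (last section), so these counts are not particular to the CDK inhibitors.

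The number of probes whose 3 values on one day did not overlap the 3 on another was read the same way. It was 0 of 8 for day 2 against day 0 (24.4% of all probes), 2 for day 7 against day 0 (37.9%; CDKN2B and CDKN1A) and 1 for day 14 against day 0 (25.6%; CDKN1B probe 1, lower on day 14). It was 2 for day 7 against day 2 (20%; CDKN2B and CDKN2D) and 2 for day 14 against day 7 (20.2%; the same 2 genes).

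The difference between cows was not used to propose the set and was tested. CDKN2C differed between the cows. The means over 4 days were 2.39 ± 0.15 in cow 1, 1.71 ± 0.36 in cow 2 and 3.1 ± 0.61 in cow 3 for probe 1, and 1.97 ± 0.07, 1.08 ± 0.45 and 2.60 ± 0.74 for probe 2 (SD, n = 4 days). Cow 2 was the lowest on each of the 4 days. With day in the model, limma's moderated F gave an adjusted p of 0.0227 for probe 1 and 0.0432 for probe 2, against 1.75% of all probes called. The other 6 probes had adjusted p-values from 0.198 (CDKN1B probe 2) to 0.931 (CDKN2B). The call for CDKN2C rests on every cow: without cow 1 the adjusted p-values were 0.143 and 0.170, without cow 2 they were 0.271 and 0.388, and without cow 3 they were 0.131 for both. Without the day 2 array of cow 3 they were 0.0522 and 0.0885, with no filter on dim probes 0.0359 and 0.0620, and under the file links 1.00 for both. Cow and slide cannot be told apart in this result. Tissue make-up also differed: the log2 of summed smooth muscle and pericyte markers (below) in cow 3 was 8.84 on day 2 and 8.48 on day 14. In cows 1 and 2 it was 6.57 and 6.08 on day 2, and 6.23 and 6.02 on day 14. Its part in the CDKN2C values was not tested.

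**Figure D3:**
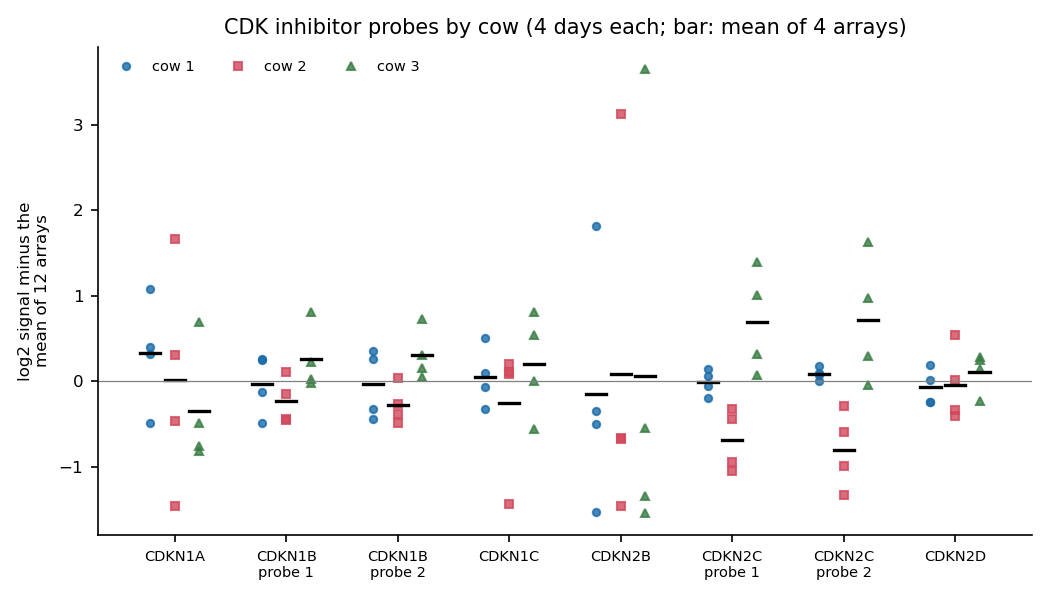
Log2 signal minus the probe's own mean over 12 arrays (y axis) for the 8 tested CDK inhibitor probes (x axis), split by cow; each point is 1 of 4 days and each black bar the mean of a cow. The bars of CDKN2C separate for both probes, with cow 2 lowest and cow 3 highest, while for CDKN2B the single high point of each cow is its day 7 array.

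The genes around the CDK inhibitors were taken from 9 lists of 198 genes, none of them a member of the set. The lists were chosen with earlier results of these data known, so nothing is read from an excess of calls over all named genes. Of the 198 genes, 166 had a tested probe, and the brightest tested probe stood for each. On day 7, 39 of the 166 were higher and 4 lower than on day 0 (adjusted p under 0.05 over all probes), which is 25.9% of them, where 18.5% of all named genes were called. Their median difference was 0.51 on the log2 scale, and that of all named genes was 0.01. On day 2, 14 were higher and 0 lower (8.43%, against 2.74% of all named genes), and on day 14 RRM2 alone was called (0.602%, against 0.0937%), with 65 and 68 listed genes at an unadjusted p under 0.05. Leaving out cow 1 left 0 calls on days 2 and 7, leaving out cow 2 left 0 and 1, and leaving out cow 3 gave 20 and 40. On day 14, leaving out any cow left 0. Among the genes named below, CDC25B, BUB1, TK1, CKS1B and, on day 14, RRM2 each had at least 1 other probe that did not pass.

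Of the cyclins and CDKs, which the inhibitors act upon, 5 of 19 were higher and 1 lower on day 7 (31.6% called, against 18.5% of all named genes). CCNB2, a mitotic cyclin, rose by 2.11 ± 0.62 (adjusted p = 0.0499), and CDC25B, the phosphatase that releases CDKs for mitosis, rose by 1.21 ± 0.27. CCNE1, the cyclin that partners CDK2 at the start of S phase, rose by 1.13, CCND2, a D-type cyclin that partners CDK4 and CDK6, by 0.96 (adjusted p = 0.0271), and CDK2 itself by 0.71 (adjusted p = 0.0245). CCNB1, the other main mitotic cyclin, fell by 2.37 ± 0.36 (adjusted p = 0.00653), and its second probe fell by 2.49. It was also lower on day 7 than on day 2, by -2.59 ± 0.36 (adjusted p = 0.0370). On day 2, 2 of 19 were called, CCNB2 at 3.13 and CDC25B at 1.56.

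The direct targets of the INK4 proteins did not pass on day 7: CDK4 differed by 0.34 and CDK6 by 0.70, with CCND1 at 1.00 (adjusted p = 0.0980) and CCND3 at -0.95 (adjusted p = 0.0570). CCNE2 differed by 0.17. In the RB and E2F list, the step that CDK4 and CDK6 control, 0 of 12 genes were called by limma on day 7, with 5 at an unadjusted p under 0.05, and RB1 differed by 0.25. On days 2 and 14 it was again 0 of 12, with 2 and 3 unadjusted.

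Genes of S phase and mitosis were called in 4 of 22 cases on day 2 and 5 of 22 on day 7, with medians of 1.61 and 0.84. Those shares were 18.2% and 22.7%, against 2.74% and 18.5% of all named genes. RRM2, a ribonucleotide reductase subunit, rose by 4.47 ± 0.49 on day 2, 3.79 on day 7 and 4.07 on day 14 (adjusted p-values 0.0116, 0.00416 and 0.0439). BUB1, a spindle checkpoint kinase, rose by 2.16 on day 2 and 1.39 on day 7. CDC6, which loads the replicative helicase, was not well above background on any day 0 array, and was at least 3.15-fold higher on day 2 and at least 2.26-fold higher on day 7, a bound taken from the dimmest signal counted as detected. TK1 rose by 1.01 on day 2 and was lower on day 7 than on day 2, by -1.52 (adjusted p = 0.0289). MCM6 rose by 0.83 on day 7 and TYMS, thymidylate synthase, fell by 1.31. MKI67 had no probe by that name.

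**Figure D4:**
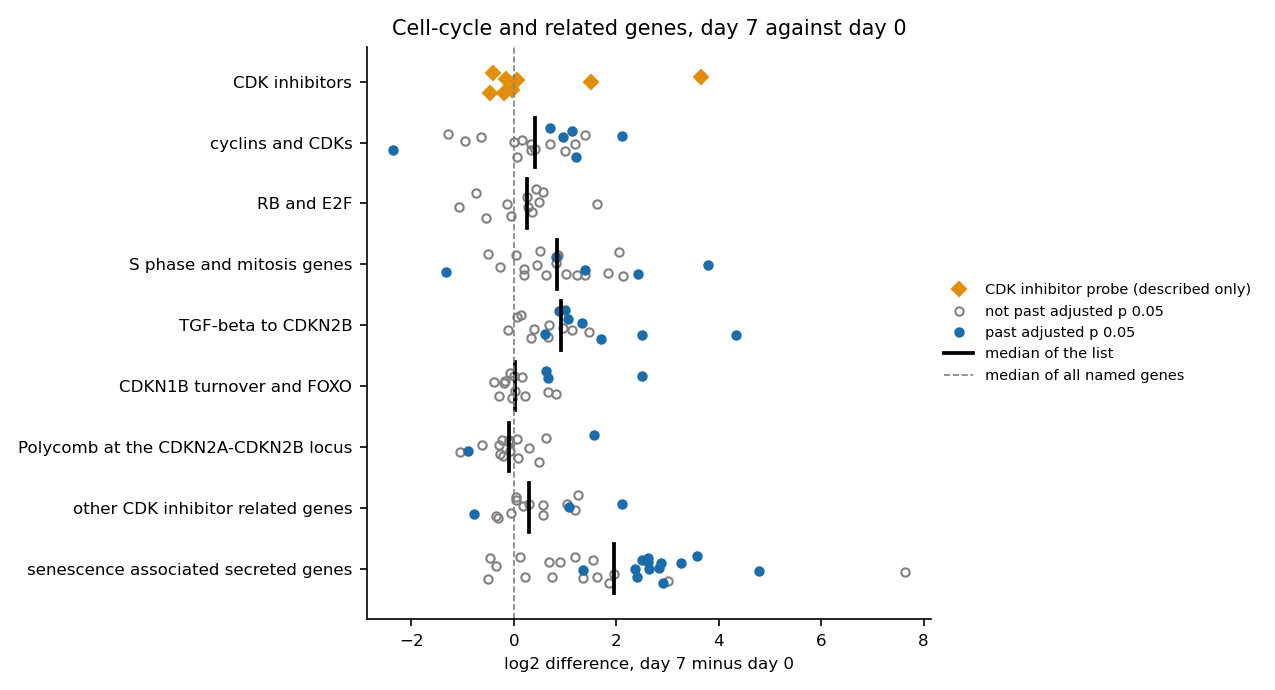
Log2 difference between day 7 and day 0 (x axis) for the CDK inhibitor probes (diamonds, given as a description) and the genes of 8 lists (y axis); filled circles passed an adjusted p of 0.05, open circles did not, black bars are list medians and the dashed line is the median of all named genes at 0.01. The medians of the secreted genes, at 1.95, and of the TGF-beta list, at 0.92, lie farthest to the right, and CDKN2B lies among the highest listed genes.

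The list on the route from TGF-beta and activin to CDKN2B held 18 measured genes, of which 8 were higher and 0 lower on day 7, with a median of 0.92. The share called was 44.4%, against 18.5% of all named genes. In this route a ligand binds receptors that phosphorylate SMAD2 and SMAD3, and these act with SMAD4 at promoters such as that of CDKN2B, where MYC is known to repress. Among the ligands, INHBA, the activin A subunit, rose by 4.33 ± 0.81 (adjusted p = 0.0124), with a mean of 4.37 ± 0.16 on day 7 (SD, n = 3) and 2.07 ± 2.11 on day 14. TGFB1 rose by 0.99 ± 0.22 (adjusted p = 0.0215). The type I receptor gene TGFBR1 rose by 1.05, although its probe was well above background on 1 of 3 day 0 arrays against 3 of 3 on day 7.

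SMAD3, the signal transducer of this route, rose by 1.70 ± 0.18 on day 7 (adjusted p = 0.00219). Of its other 3 probes, 2 were also called and 1 was not, at 0.83 (adjusted p = 0.149). SMAD3 also passed for day 7 against day 2, by 1.1 ± 0.18 (adjusted p = 0.0490); INHBA and TGFB1 were higher in 3 of 3 cows, by 3.09 and 0.99, and did not pass (adjusted p = 0.114 and 0.0879). CDKN2B differed by 3.77 in the same comparison. A link between CDKN2B and the genes of this list was not tested. SKIL, a SMAD co-repressor and itself a SMAD target, rose by 1.33. MYC differed by 0.96 and did not pass (adjusted p = 0.0540). From day 7 to day 14, where CDKN2B dropped by 4.04, 0 of the 18 genes passed limma's test, 6 of them at an unadjusted p under 0.05, and the median was -0.37.

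**Figure D5:**
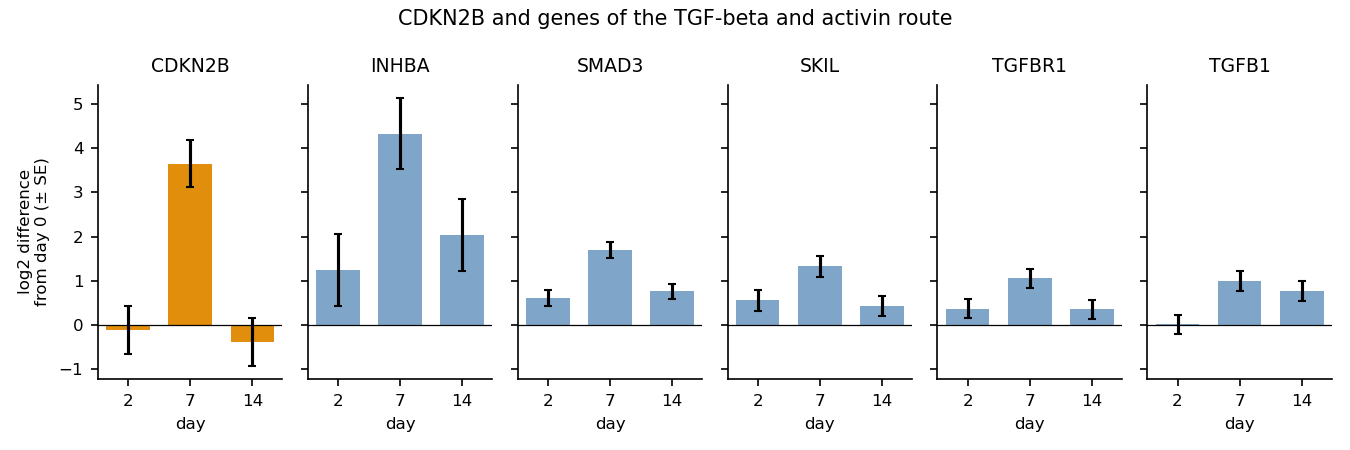
Log2 difference from day 0 (y axis; bars with SE of the fit) on days 2, 7 and 14 (x axis) for CDKN2B and 5 genes of the TGF-beta and activin list, from 3 cows. CDKN2B stands at 3.65 on day 7 and at -0.12 and -0.39 on days 2 and 14, and INHBA and SMAD3 are highest on day 7 with 4.33 and 1.70.

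Among stress-response genes related to CDKN1A, PLK3, a stress kinase, rose by 1.61 on day 7 and GADD45A, a growth arrest gene, by 1.48. MDM4 rose by 0.72, although its other 2 probes did not pass. PLK3, GADD45A and MDM4 were named because they passed, so no shared direction of such genes can be read from them. MDM2, a ubiquitin ligase, differed by -0.41 and did not pass, although another of its probes did at -0.80 (adjusted p = 0.0368).

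Around CDKN1B, 3 of 15 genes of its turnover and its FOXO regulators were higher on day 7. That is 20%, near the 18.5% of all named genes called. FOXO1, a transcription factor known to activate CDKN1B, rose by 2.51 ± 0.46, CKS1B, which helps SKP2 bind p27, by 0.68, and RHOA by 0.62. SKP2 differed by 0.02. CKS1B was the single gene of this list called on day 2, at 0.94 (6.67%, against 2.74% of all named genes). In the Polycomb list, named for the complexes known to silence CDKN2A and CDKN2B, 1 of 17 genes was higher and 1 lower on day 7: EZH2, the methyltransferase, rose by 1.56 (adjusted p = 0.0430; 3 of its 7 probes passed), and EED, its partner subunit, fell by 0.90. The share called on day 7 was 11.8%, below the 18.5% of all named genes. On day 2 limma called 0 of 17, with 4 unadjusted.

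Among 15 other genes related to CDK inhibition, TRIB3, a stress-induced pseudokinase, rose by 2.19 on day 2 and 2.11 on day 7, and CDKN3, a CDK phosphatase that is no member of either inhibitor family, rose by 2.76 on day 2. CABLES2 rose by 1.07 on day 7. CDK5R1, an activator of CDK5, fell by 0.78 on day 7, but its other probe was at -0.03 and did not pass.

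Secreted genes often listed with senescence, a lasting cell-cycle arrest in which CDKN2A, CDKN2B and CDKN1A are known to take part, were called in 5 of 29 cases on day 2 and 13 of 29 on day 7, all higher, with medians of 1.76 and 1.95. Those shares were 17.2% and 44.8%, against 2.74% and 18.5% of all named genes. On day 7, the chemokine genes CXCL5, CCL2 and CXCL8 rose by 4.78, 2.92 and 2.87, CXCL2 was at least 5.74-fold higher, and PLAUR, the urokinase receptor, rose by 3.58. On day 2, CCL2, CXCL8 and TIMP1 rose by 3.60, 3.26 and 2.16, and MMP12 was at least 11.8-fold higher. The CXCL8 probe was well above background on 1 of 3 day 0 arrays, and its other 2 probes on 0 of 3, where they were at least 7.28-fold and at least 3.88-fold higher on day 7. White blood cells also make many of these products.

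Markers of other cell types moved between the same days. In bulk tissue, a change in the share of a cell type and a change of RNA per cell cannot be told apart. On day 7, 5 of 10 smooth muscle and pericyte markers were higher (median 1.49; ACTA2 by 1.85, TAGLN by 3.14), and the log2 of their summed signal ran from 7.30 to 8.37, against 5.50 to 6.06 at day 0, 6.08 to 8.84 at day 2 and 6.02 to 8.48 at day 14. Macrophage and monocyte markers were higher in 4 of 10 cases, at 3.86 to 5.63 against 3.67 to 3.95 on day 0, 4.12 to 4.76 on day 2 and 2.82 to 5.10 on day 14. Neutrophil markers, 1 of 5 called on days 2 and 7, ran from 1.61 to 3.12 on day 2 and 0.05 to 2.26 on day 7, against -1.34 to -0.03 on day 0 and -0.55 to 0.74 on day 14. Epithelial markers were called in 0 of 11 cases by limma on day 7, with 2 unadjusted, and all 11 were well above background on every array, as were 11 stromal fibroblast markers, of which 1, DPT, was called. On day 7, 2 of 10 endothelial, 2 of 11 T and NK lymphocyte, 0 of 5 B lymphocyte markers (0 unadjusted) and 1 of 7 ciliated cell markers, the last lower, were called. Of all named genes, 18.5% were called on day 7. The endothelial and neutrophil shares (20% each) and that of T and NK lymphocytes (18.2%) lay near it. The shares of smooth muscle and pericyte (50%) and macrophage and monocyte markers (40%) lay above it, and those of ciliated cell (14.3%) and stromal fibroblast markers (9.09%) below. The part of any of these in the values of the CDK inhibitors and the lists was not tested.

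The genes whose pattern over the 12 arrays was most like that of CDKN2B were found by Pearson r of the log2 signal after each cow's mean was removed, among 10905 named genes with a probe well above background on every array. The 8 highest were GPD2 (0.97), DHX9 (0.96), RER1 (0.96), ADPGK (0.95), ZBTB8B (0.95), FAM107B (0.95), WLS (0.95) and WIPI1 (0.95). GPD2, a mitochondrial glycerol phosphate dehydrogenase, had means of 1.62, 1.49, 2.75 and 1.38 on days 0, 2, 7 and 14, and WLS, the carrier of Wnt ligands, -0.44, -0.74, 0.75 and -0.48. These were single peaks on day 7 as for CDKN2B, though the day 7 minus day 0 differences of 1.13 and 1.18 were smaller than 3.65. The most opposed were AAMDC (-0.96), IDNK (-0.94) and WDR27 (-0.94). These r values describe 12 arrays that share days and slides, and carry no test.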

How the data were processed

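Endometrial RNA of 3 cows on 4 days was hybridised to 12 one-colour Agilent arrays. The deposited scanner files hold spot intensity, and the deposited value table holds log2 values per probe; per the file headers the images were read with Agilent Feature Extraction 11.5.1.1, while the submitters' processing notes name 10.5.1.1. The labels do not describe how the authors made the table; each of its columns matched 1 scanner file (lowest r 1.00, next best at most 0.52), and its sample names were used. Processed signals were log2 transformed and the array's 75th percentile subtracted. The 1417 control spots and 31 probes with only outlier-flagged spots on an array were left out, and the 33539 probes well above background on at least 3 arrays were tested. limma 3.58.1 (R 4.3.3) was fitted on all 12 arrays with day and cow (residual degrees of freedom 6, prior 2.33), and p-values were adjusted by Benjamini-Hochberg across all probes. The cow number pairs the samples because the same animals were sampled on each day. Deviations from the day means had a mean r of 0.28 over 18 pairs of 1 cow (15 above 0.1). Over 36 pairs of different cows it was -0.14, which follows from the first value once day means are subtracted and adds no evidence. Each cow lay on 1 slide, so these values cannot tell animal from slide. Genes were named through RefSeq accessions or symbols. Named were all CDK inhibitor probes, up to 5 genes per list, and contrast against day 0, with the largest called change that went the same way in 3 cows, a fixed set of core partners, and the 8 genes most like and 3 most opposed to CDKN2B; list genes called between other days and the CDKN2B neighbours were added. A few of the named genes and 1 list are not reported here. The members and lists were chosen with earlier results of these data known. The fit was tested on simulated data. Alternatives were other normalisations, dim-probe filters, no cow block, only the 2 days compared, array weights, file links, and leaving out each cow or the day 2 array of cow 3. P-values of days and of cows rest on the spread left in these 3 cows after day and cow were fitted, moderated over all probes. With 1 biopsy sample per cow and day, differences between biopsies and arrays are part of that spread, and the number of arrays limits precision.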

Additional observations from a re-analysis of the deposited data

How the results depend on the processing

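Counts of listed genes called depended mainly on the cows, the array weights and the sample names; the cause was not tested beyond the fewer samples or days entering some fits. For day 2, 7 and 14 against day 0, the 14, 43 and 1 calls became 54, 68 and 5 with array weights, 5, 17 and 0 with only the 2 days compared, and 0, 0 and 0 under the file links. Without the cow block in this paired design they were 9, 36 and 0. Leaving out a cow or the day 2 array of cow 3 gave 0 to 20, 0 to 51 and 0 to 1. Day 14 gave 12 after normexp (here always followed by quantile normalisation), 0 with no filter on dim probes and 6 with probes detected on all 12 arrays. Day 7 against day 2 (3 calls) gave 1 with every probe kept, 0 from those 2 days alone, 62 with weights, 0 under the links and 0 to 19 with samples left out. Day 14 against day 7 (0) gave 3 after normexp, 3 with the strict filter, 53 with weights and 0 to 1 with samples left out; day 14 against day 2 (0) gave 83 with weights. Any difference among days (29) gave 14 with no filter, 19 without the cow block, 127 with weights, 0 under the links and 0 to 38 with samples left out. The cow term of the CDK inhibitor probes (2) gave 1 with no filter, 0 under the links and 0 to 0 with samples left out. Under the links CDKN2B differed by -1.54 (day 2 minus 0), 0.32 (7 minus 0), 1.86 (7 minus 2), -0.38 (14 minus 7) and 1.48 (14 minus 2), and after normexp by -2.83 (14 minus 7). Of 642 differences of single CDK inhibitor probes or genes under an alternative, 606 stayed within 1 SD over cows of the value reported, 36 did not, and 44 changed sign. Part of the 606 was fixed in advance. Changing only the probe filter, the cow block or the days fitted cannot move a difference when every cow has 1 array per day. Signals near background, as of CDKN1A probe 2, limit what can be read from dim probes.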
